A study of Sus scrofa with 12 samples.

Results

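ATP-binding cassette (ABC) transporter genes were followed in infarcted heart tissue of pigs treated with stromal cell secretomes. Members were the genes whose symbol in the platform annotation is ABC, a letter from A to G and a number, which gave 26 genes of 10912 named genes. These genes have 41 of the 27558 probe sets on the array, and where a gene has several, the one whose mean across all 12 pigs was highest stands for it. The members are ABCA1, ABCA2, ABCA3, ABCA4, ABCA6, ABCA12, ABCB5, ABCB6, ABCB9, ABCB10, ABCB11, ABCC1, ABCC2, ABCC3, ABCC4, ABCC5, ABCC8, ABCC9, ABCC10, ABCD2, ABCD4, ABCF1, ABCG2, ABCG4, ABCG5 and ABCG8. A further 19 ABC genes of the lists used here, among them ABCB1, ABCG1 and ABCE1, were not named in the annotation and were not analysed here.

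RNA came from the anterior wall of the left ventricle, the infarct area, of female Large White pigs, taken on day 7 post-therapy from 3 biogroups of 4 pigs, each pig on its own array. All pigs had an acute myocardial infarction (AMI) made by balloon occlusion and reperfusion of a coronary artery, and each then received its therapy in the pericardial sac. AMI/S-endMSCs pigs received the secretome of human endometrial mesenchymal stromal cells, taken from menstrual blood of healthy women. AMI/S-endMSCs* pigs received the secretome of the same kind of human cells primed with IFNγ and TNFα, and AMI/Placebo pigs the vehicle medium. The animals were young and otherwise healthy, and no pig without an infarct is among the arrays analysed here.

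ABC proteins use ATP to move substrates across membranes, and most of them export. ABCG2, also called breast cancer resistance protein, is a plasma membrane exporter of drugs, urate and porphyrins, is found on endothelium of small vessels, and marks side population stem cells. The ABCC branch holds exporters of organic anions and glutathione conjugates together with the sulfonylurea receptors, which regulate the ATP-sensitive potassium (KATP) channel in place of transporting. Many ABCA proteins move cholesterol and phospholipids, and ABCA1 loads lipid-poor apolipoprotein with cholesterol from macrophages under the control of liver X receptors (LXR). Other members work in mitochondria, lysosomes or peroxisomes, and ABCF1 is a soluble protein of translation.

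The values are log2 units of Robust Multichip Average (RMA), and the median of all probe sets was 2.78. The interquartile range of an array lay between 1.66 and 2.51 and its mean correlation with the other arrays between 0.821 and 0.911. AMI/S-endMSCs replicate 1 had the lowest value of both, so the main results that rest on it are also given without it. Next lowest in both were AMI/Placebo replicate 4 (1.80 and 0.875) and AMI/S-endMSCs* replicate 4 (1.81 and 0.876). Without AMI/Placebo replicate 4, 2904 probe sets were called in AMI/S-endMSCs against AMI/Placebo, in place of 1420. Cardiomyocyte markers were present (17 of 22 measured, all 17 above that median as the mean of at least 1 biogroup), and so were macrophage (14 of 17 measured, 13 above) and endothelial markers (8 of 15 measured, 6 above). The mean of the cardiomyocyte markers, each centred over the arrays, was -0.75 (range -1.78 to 0.15) in AMI/S-endMSCs, 0.90 (-1.18 to 1.86) in AMI/S-endMSCs* and -0.14 (-1.45 to 0.70) in AMI/Placebo pigs. By the same test as the genes below, 13 of the 17 markers rose in AMI/S-endMSCs* against AMI/S-endMSCs, where 7.29% of all genes were called. Without AMI/S-endMSCs replicate 1 the AMI/S-endMSCs mean was -0.41, and 3 of the 13 (ATP2A2, CKMT2 and PLN) were still called while 10 were not, with a median log2 fold change of 1.35 and 17 of 17 positive.

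ABCG2 had the clearest difference between biogroups of the 26 genes. Its values were 5.03, 4.96, 4.32 and 5.34 in AMI/S-endMSCs pigs, 5.85, 5.34, 5.31 and 5.27 in AMI/S-endMSCs* pigs, and 6.17, 6.15, 6.61 and 5.38 in AMI/Placebo pigs. All 4 AMI/S-endMSCs pigs were below all 4 AMI/Placebo pigs, although the highest AMI/S-endMSCs value (5.34) lay close to the lowest AMI/Placebo value (5.38); between these biogroups the pigs did not overlap in 2.73% of all genes. In AMI/S-endMSCs* pigs, 3 values lay below the lowest AMI/Placebo value and replicate 1 lay between AMI/Placebo values. In bulk tissue, fewer cells of a type and less RNA per cell cannot be told apart.

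ABCG2 averaged 4.91 ± 0.43 in AMI/S-endMSCs and 6.08 ± 0.51 in AMI/Placebo pigs (SD, n = 4 each). The log2 fold change was -1.17 (SE 0.293, 95% interval -1.80 to -0.54), which is 44.6% of the AMI/Placebo level on the array's scale. ABCG2 fell by the threshold of the study's methods, an unadjusted limma p under 0.05 (unadjusted p = 0.00141, rank 13 of all genes by p), but not after Benjamini-Hochberg adjustment over all probe sets (limma adjusted p = 0.857, where 0 probe sets passed). The exact permutation test gave p = 0.0286, two-sided, which is the smallest that 4 against 4 pigs allow. Any gene whose pigs do not overlap between these biogroups reaches that p, so it restates the lack of overlap and adds nothing to it. The call held without each of the 12 arrays in turn, with values from -1.40 to -0.97, and without AMI/S-endMSCs replicate 1 the value was -1.21 (unadjusted p = 0.00256).

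In AMI/S-endMSCs* pigs ABCG2 averaged 5.44 ± 0.27, against 6.08 ± 0.51 in AMI/Placebo pigs (SD, n = 4 each). The log2 fold change was -0.64 (SE 0.293, 95% interval -1.27 to -0.01), or 64.3% of the AMI/Placebo level, with unadjusted p = 0.0479 (limma, adjusted p = 1.0) and an exact permutation p of 0.0571, two-sided. ABCG2 thus fell by the unadjusted limma test, close to its threshold. The call was kept without AMI/Placebo replicate 4, AMI/S-endMSCs* replicate 1 or AMI/S-endMSCs replicate 3 or 4, and lost without any of the other 8 arrays, with values from -0.87 (unadjusted p = 0.00761, without AMI/Placebo replicate 4) to -0.46 (unadjusted p = 0.156, without AMI/Placebo replicate 3). Between the treated biogroups, AMI/S-endMSCs* stood 0.53 above AMI/S-endMSCs on the log2 scale (SE 0.293, interval -0.10 to 1.16, limma unadjusted p = 0.0929, adjusted p = 0.730), which did not pass the threshold. Both treated biogroups are set against the same 4 AMI/Placebo pigs.

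The array holds 2 other ABCG2 probe sets, and neither was called in any of the 3 comparisons (unadjusted limma p from 0.242 to 0.837). Probe set 15324474 read 3.67, 3.62, 3.67 and 2.92 in AMI/S-endMSCs, 3.27, 3.85, 4.07 and 3.30 in AMI/S-endMSCs*, and 4.24, 3.82, 3.70 and 3.44 in AMI/Placebo pigs. Probe set 15321760 read 2.65, 2.83, 2.45 and 3.27 in AMI/S-endMSCs, 2.83, 3.22, 2.18 and 4.56 in AMI/S-endMSCs*, and 4.05, 1.95, 2.64 and 2.98 in AMI/Placebo pigs. AMI/S-endMSCs and AMI/Placebo pigs overlapped in both, unlike in probe set 15321766, which carried the values above. For AMI/S-endMSCs against AMI/Placebo their log2 fold changes were -0.33 (interval -0.92 to 0.25) and -0.10 (-1.14 to 0.94), with exact permutation p of 0.286 and 0.857, two-sided. Across the 12 pigs they correlated with the main probe set at r = 0.21 and r = 0.03, as a description of probe sets that share each array. With the mean over the 3 probe sets in place of the highest one, the log2 fold change of ABCG2 was -0.53 (unadjusted p = 0.0409) in AMI/S-endMSCs and -0.17 (unadjusted p = 0.477) in AMI/S-endMSCs* against AMI/Placebo.

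**Figure D1:**
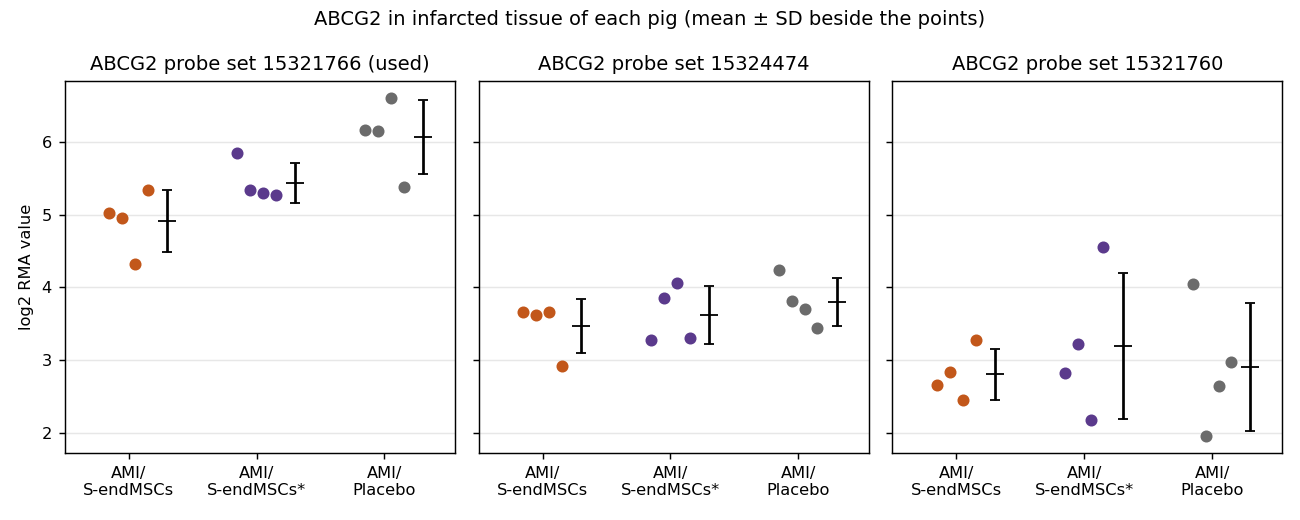
Log2 RMA values of the 3 ABCG2 probe sets (vertical axis) in the 3 biogroups (horizontal axis), 1 point per pig, with the mean and SD of 4 pigs beside the points. In probe set 15321766 all 4 AMI/S-endMSCs pigs (4.32 to 5.34) lie below all 4 AMI/Placebo pigs (5.38 to 6.61), while these biogroups overlap in the other 2 probe sets.

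No relation of ABCG2 with muscle or macrophage markers passed. Its r with the cardiomyocyte markers over 12 pigs was 0.0982 (permutation p = 0.760, adjusted p = 0.952; rho 0.126, permutation p = 0.701) and 0.0620 without the 2 pigs farthest from the median of the markers, and with those markers as a covariate the difference of AMI/S-endMSCs from AMI/Placebo was -1.19 (unadjusted p = 0.00215). For macrophage markers r was 0.407 (permutation p = 0.189, adjusted p = 0.614; rho 0.406, permutation p = 0.193) and 0.316 without the 2 farthest pigs. Of the 8 endothelial markers measured, KDR, the main receptor of VEGF, fell in AMI/S-endMSCs against AMI/Placebo (log2 fold change -0.76, limma unadjusted p = 0.0308, adjusted p = 0.857), and the other 7 did not pass. In that comparison 4.44% of all genes were called and 1.83% were called lower. The call of KDR was lost without AMI/S-endMSCs replicate 1 (-0.55, unadjusted p = 0.104), AMI/S-endMSCs replicate 2 or AMI/Placebo replicate 1. The other of the 2 KDR probe sets was not examined. The endothelial mean was -0.01 ± 0.15 (range -0.14 to 0.18) in AMI/S-endMSCs, -0.09 ± 0.14 (-0.29 to 0.02) in AMI/S-endMSCs* and 0.10 ± 0.14 (-0.05 to 0.26) in AMI/Placebo pigs. PECAM1 averaged 5.56 in AMI/S-endMSCs and 5.60 in AMI/Placebo pigs, with a log2 fold change of -0.03. The part of endothelial cells in the ABCG2 result was not tested.

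For the 26 genes together, few differences passed. Only ABCG2, 1 of 26 (3.85%), was called in AMI/S-endMSCs against AMI/Placebo, where 4.44% of all genes were called and 1.83% were called lower, and ABCG2 was also the 1 gene of 26 whose pigs did not overlap, against 2.73% of all genes. ABCG2 was again the 1 gene of 26 called in AMI/S-endMSCs* against AMI/Placebo, where 3.23% of all genes were called and 1.28% were called lower, and 0 of 26 had pigs without overlap, against 1.99%. Between the treated biogroups 0 of 26 were called by limma at an unadjusted p under 0.05, against 7.29% of all genes (2.47% lower in AMI/S-endMSCs*), and 0 had pigs without overlap, against 3.54%. Each member share above 0 is 1 gene of 26, so no excess over all genes can be read from it. It stood above the shares called lower and the 2.73% without overlap, and near or under the shares called in either direction. No member passed the adjustment over all probe sets in any comparison, and the lowest adjusted p among members was 0.857, 1.0 and 0.730 in the order of comparisons just given.

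Of the 26 genes 18 had a negative log2 fold change in AMI/S-endMSCs against AMI/Placebo, with a median of -0.09, beside 0.01 over all genes, of which 49.3% were negative. For AMI/S-endMSCs* against AMI/Placebo 17 were negative, with a median of -0.06, beside 0.01 over all genes and 49.0% negative. Between the treated biogroups 13 were negative and 13 positive. With the arrays centred on their medians, 18 genes were negative in the first comparison and 19 in the second. The medians over all probe sets were then -0.06 and -0.02, in place of 0.04 and 0.004. With quantile normalization 18 and 16 were negative, beside medians of 0.003 and -0.004 over all probe sets. With dim probe sets removed, 12 and 10 of 13 were negative, beside -0.09 and -0.02. Array weights gave 17 and 15 of 26, and the mean over a gene's probe sets 16 and 15. With arrays left out in turn, the first count ranged from 13 (without AMI/Placebo replicate 2, median 0.0006) to 20 (without AMI/S-endMSCs replicate 1). The second ranged from 14 (without AMI/Placebo replicate 4) to 19 (without AMI/Placebo replicate 1). With the cardiomyocyte markers as a covariate the counts were 15 and 18. Between pigs of a biogroup the members varied as other genes did, with a median pooled SD of 0.422 over members and 0.417 over all genes. The 95% interval of a log2 fold change reached from 0.459 to 1.16 to either side, depending on the gene. An observed difference smaller than the reach for its gene could not be called with 4 pigs per biogroup. The size of true difference that would be missed was not computed.

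**Figure D2:**
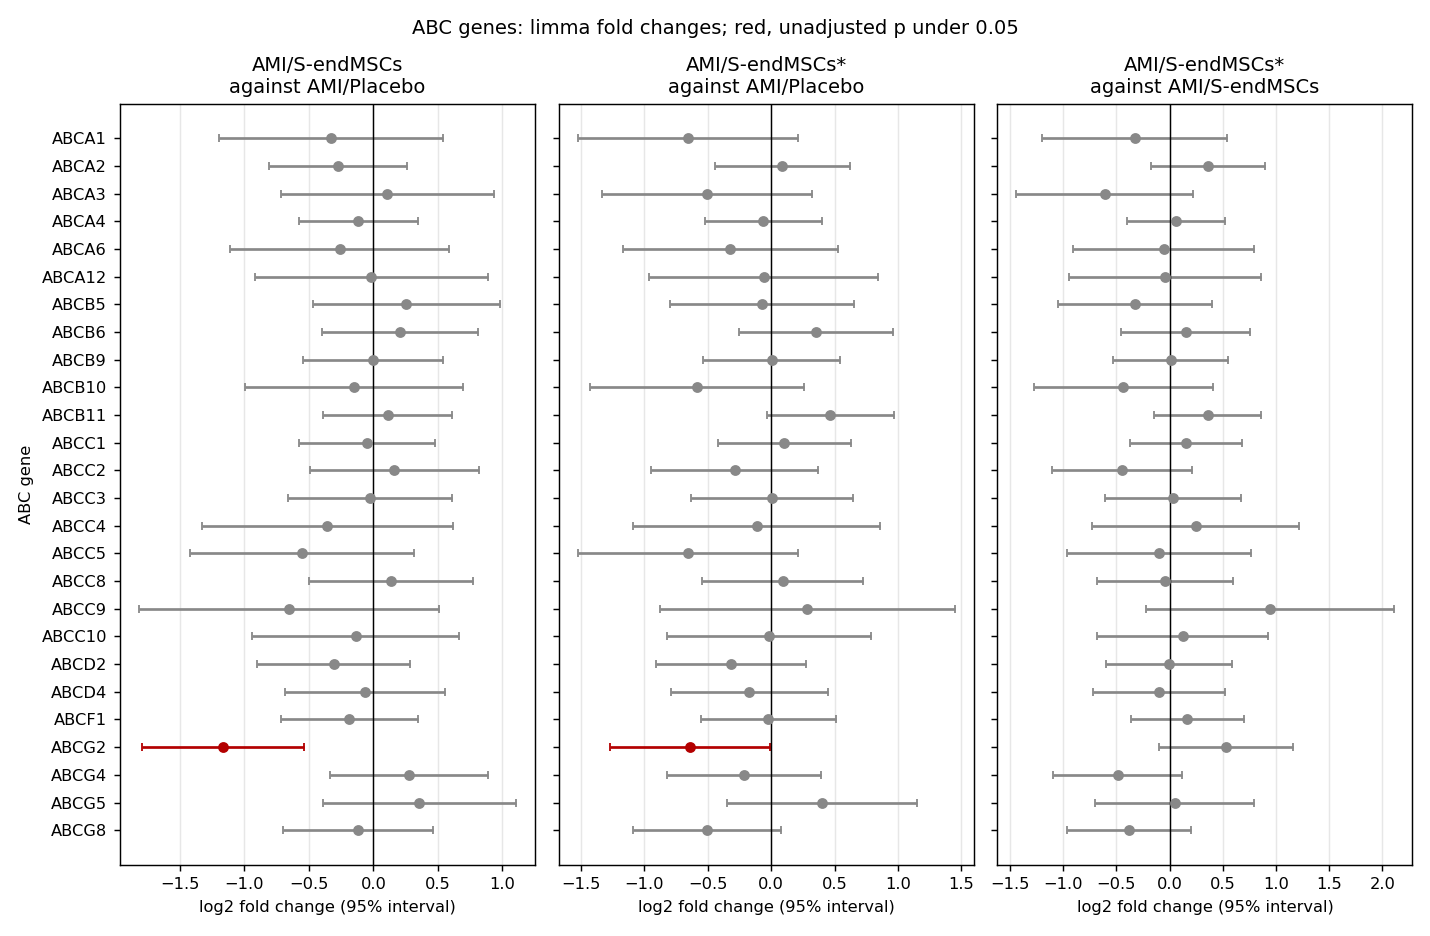
Limma log2 fold changes of the 26 ABC genes (points) with 95% intervals (bars) in the 3 comparisons, 4 pigs per biogroup. ABCG2 is the gene whose interval excludes 0 against AMI/Placebo, at -1.17 in AMI/S-endMSCs and -0.64 in AMI/S-endMSCs*, and no interval excludes 0 between the treated biogroups.

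Levels of the family in the infarct differed widely. Of the 26 genes 13 exceeded that median of 2.78 as the mean of at least 1 biogroup, and 13 lay below it in all 3. Those above were ABCA1, ABCA3, ABCA6, ABCB9, ABCB10, ABCC1, ABCC4, ABCC5, ABCC9, ABCC10, ABCD4, ABCF1 and ABCG2. Liver and gut transporters of bile and sterols, such as ABCB11, ABCC2, ABCG5 and ABCG8, were among those below. A low array value does not separate a gene that is not expressed from a probe set that reads poorly.

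**Figure D3:**
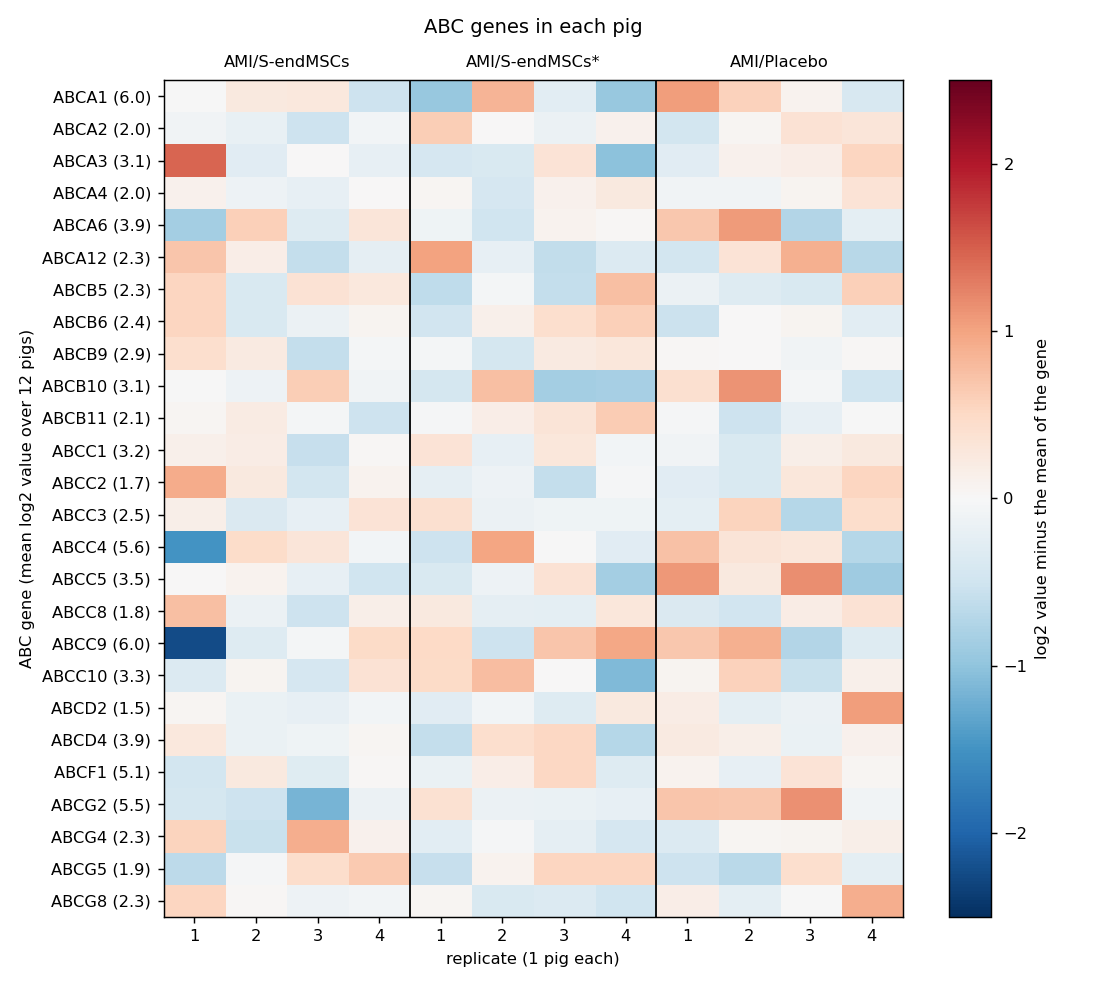
Each row is an ABC gene (its mean log2 value over 12 pigs in brackets) and each column a pig, grouped by biogroup; colour gives the log2 value minus the mean of the gene. ABCG2 is below its mean in all 4 AMI/S-endMSCs pigs, and ABCC9 and ABCC4 have their lowest value in AMI/S-endMSCs replicate 1.

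Of the 9 exporters of drugs and organic anions, 1 was called, ABCG2, and 8 were not. ABCG2 was called in both treated biogroups against AMI/Placebo, where 4.44% (AMI/S-endMSCs) and 3.23% (AMI/S-endMSCs*) of all genes were called. Between the treated biogroups 0 of the 9 were called, against 7.29% of all genes. With 1 gene called, no excess over all genes can be read from this count. ABCC4, also called MRP4, exports cyclic nucleotides and prostaglandins. It read 4.06, 6.03, 5.88 and 5.49 in AMI/S-endMSCs, 5.04, 6.56, 5.55 and 5.29 in AMI/S-endMSCs*, and 6.30, 5.89, 5.86 and 4.85 in AMI/Placebo pigs. The biogroups overlapped, and the lowest value was that of AMI/S-endMSCs replicate 1. The log2 fold changes were -0.36 (interval -1.33 to 0.62) in AMI/S-endMSCs and -0.11 (-1.09 to 0.86) in AMI/S-endMSCs* against AMI/Placebo. Without AMI/S-endMSCs replicate 1 the first became 0.08 (unadjusted p = 0.845).

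ABCC5, also called MRP5, exports cyclic nucleotides and is present in heart muscle and vessels. It read 3.55, 3.62, 3.32 and 3.03 in AMI/S-endMSCs, 3.14, 3.40, 3.90 and 2.69 in AMI/S-endMSCs*, and 4.61, 3.78, 4.70 and 2.65 in AMI/Placebo pigs. AMI/Placebo held the 2 highest values and, in replicate 4, the lowest of all 12. ABCC5 had the second smallest p of the members in AMI/S-endMSCs against AMI/Placebo, at -0.55 (SE 0.404, limma unadjusted p = 0.193, adjusted p = 0.857), and it stood at -0.65 (unadjusted p = 0.129) in AMI/S-endMSCs* against AMI/Placebo. Without AMI/Placebo replicate 4 both were called, at -0.98 (unadjusted p = 0.00894) and -1.08 (unadjusted p = 0.00493).

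The remaining exporters of this kind showed less. ABCC1, also called MRP1, stayed between 2.57 and 3.50, and its log2 fold changes were -0.05 and 0.10 in AMI/S-endMSCs and AMI/S-endMSCs* against AMI/Placebo. ABCC10 stayed between 2.21 and 4.08, with log2 fold changes of -0.14 and -0.02 in the same order. ABCC2, ABCC3 and ABCB5 had means of 1.71, 2.54 and 2.30, below the median of all probe sets. ABCB11, the bile salt export pump of the liver, read 2.16, 2.31, 2.06 and 1.60 in AMI/S-endMSCs, 2.08, 2.29, 2.43 and 2.75 in AMI/S-endMSCs*, and 2.08, 1.60, 1.91 and 2.09 in AMI/Placebo pigs. Its log2 fold change in AMI/S-endMSCs* against AMI/Placebo was 0.47 (limma unadjusted p = 0.0657, adjusted p = 1.0), and its other probe set gave 0.01, with r = -0.26 between them.

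Regulators of drug transporter genes did not pass either. Of 15 listed xenobiotic receptors and stress regulators 12 were measured, and 0 passed in any of the 3 comparisons by limma. Against AMI/Placebo in AMI/S-endMSCs the smallest p was that of NR1I2, the pregnane X receptor, at 0.43 (unadjusted p = 0.0829), and ARNT, the partner of several of these factors, stood at -0.59 (unadjusted p = 0.0989). HIF1A and NFE2L2, transcription factors of the hypoxic and oxidative responses, had log2 fold changes of -0.33 and -0.13 in AMI/S-endMSCs and of -0.18 and -0.21 in AMI/S-endMSCs* against AMI/Placebo. The 2 other ABC proteins measured outside the symbol rule were TAP1, which loads peptides for MHC class I, and the chloride channel CFTR. TAP1 had log2 fold changes of -0.74 (unadjusted p = 0.0792) in AMI/S-endMSCs and -0.44 (unadjusted p = 0.282) in AMI/S-endMSCs* against AMI/Placebo. CFTR rose in AMI/S-endMSCs* against AMI/Placebo (mean 2.54 in AMI/S-endMSCs* and 1.85 in AMI/Placebo, log2 fold change 0.69, limma unadjusted p = 0.0421, adjusted p = 1.0), at a level under the median of all probe sets in both biogroups, and its call was lost without 6 of the 12 arrays, 3 of them AMI/S-endMSCs* (replicates 1, 3 and 4) and 3 AMI/Placebo (replicates 1, 2 and 4).

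Of the 9 lipid transporters 0 were called in any comparison by limma at an unadjusted p under 0.05. ABCA1, the cholesterol exporter of macrophages, read 5.99, 6.25, 6.26 and 5.49 in AMI/S-endMSCs, 5.05, 6.84, 5.75 and 5.05 in AMI/S-endMSCs*, and 7.04, 6.58, 6.09 and 5.60 in AMI/Placebo pigs. The biogroups overlapped, and AMI/S-endMSCs* held both the 2 lowest values and the second highest. The log2 fold change was -0.66 (SE 0.404, limma unadjusted p = 0.127, adjusted p = 1.0) in AMI/S-endMSCs* and -0.33 (unadjusted p = 0.432) in AMI/S-endMSCs against AMI/Placebo. The difference of AMI/S-endMSCs* was called without AMI/S-endMSCs* replicate 2, at -1.05 (unadjusted p = 0.0104), and without AMI/Placebo replicate 4, at -0.90 (unadjusted p = 0.0483).

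ABCA6, a transporter thought to act in macrophage lipid handling in humans, read 3.01, 4.44, 3.53 and 4.17 in AMI/S-endMSCs, 3.75, 3.35, 3.93 and 3.88 in AMI/S-endMSCs*, and 4.53, 4.93, 3.13 and 3.61 in AMI/Placebo pigs. The biogroups overlapped, with log2 fold changes of -0.26 (interval -1.11 to 0.59) in AMI/S-endMSCs and -0.32 (-1.17 to 0.53) in AMI/S-endMSCs* against AMI/Placebo. The other of the 2 ABCA6 probe sets, with a mean of 2.77, gave 0.02 and 0.04, with r = 0.11 between them over 12 pigs. ABCA3, the surfactant lipid transporter of the lung, read 4.56, 2.82, 3.11 and 2.90 in AMI/S-endMSCs, 2.68, 2.73, 3.45 and 2.07 in AMI/S-endMSCs*, and 2.82, 3.22, 3.27 and 3.64 in AMI/Placebo pigs. A single pig, AMI/S-endMSCs replicate 1, stood apart, and without it the log2 fold change against AMI/Placebo was -0.30 (unadjusted p = 0.355) in place of 0.11 (unadjusted p = 0.781). Of the 3 probe sets of ABCA3, 2 had identical values in all pigs. ABCA2, ABCA4, ABCA12, ABCG4, ABCG5 and ABCG8 had means of 2.04, 2.02, 2.32, 2.29, 1.87 and 2.30, and their log2 fold changes in the 3 comparisons lay between -0.50 and 0.40.

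Genes around cholesterol efflux were examined next. Of 20 listed genes of LXR signalling and efflux 15 were measured. Against AMI/Placebo, 2 of the 15 fell and 1 rose in AMI/S-endMSCs* pigs, where 3.23% of all genes were called and 1.28% were called lower. NR1H3, which encodes LXR alpha, had a log2 fold change of -0.90 (unadjusted p = 0.0215) with means of 8.75 in AMI/S-endMSCs* and 9.64 in AMI/Placebo pigs. This is the brighter of its 2 probe sets, at percentile 99.5 of all probe sets by its mean, and the other was not examined. APOE, an acceptor of exported cholesterol, had one of -0.82 (unadjusted p = 0.0187) with means of 3.94 in AMI/S-endMSCs* and 4.76 in AMI/Placebo pigs. The call of NR1H3 was lost without AMI/S-endMSCs* replicate 3 or 4 or AMI/Placebo replicate 1 or 3, and that of APOE without AMI/S-endMSCs* replicate 1 or 4 or AMI/Placebo replicate 1. LPL, the lipoprotein lipase, rose by 1.47 (unadjusted p = 0.000516), with means of 5.69 in AMI/S-endMSCs* and 4.23 in AMI/Placebo pigs. Against AMI/S-endMSCs, LPL rose in AMI/S-endMSCs* by 1.49 (unadjusted p = 0.000437) and LPCAT3, a phospholipid remodelling enzyme, by 1.26 (unadjusted p = 0.00621), both called without each of the 12 arrays in turn. In that comparison 7.29% of all genes were called. Of the 17 cardiomyocyte markers 13 were called higher there too, and 3 of the 13 without AMI/S-endMSCs replicate 1. The part of these markers in the values of LPL and LPCAT3 was not tested. In AMI/S-endMSCs against AMI/Placebo 0 of 15 were called by limma, and in no comparison did one of the 15 pass the adjustment over all probe sets. Against AMI/Placebo the median log2 fold change of the 15 was -0.32 in AMI/S-endMSCs and -0.25 in AMI/S-endMSCs*.

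Macrophage markers moved beside these genes, and their part in the values of NR1H3 and APOE was not tested. Of 14 measured markers 3 fell in AMI/S-endMSCs* against AMI/Placebo (1.28% of all genes were called lower), TYROBP (-1.07, unadjusted p = 0.00329), C1QB (-0.98, unadjusted p = 0.0257) and AIF1 (-0.76, unadjusted p = 0.0452), and 13 of 14 had a negative log2 fold change. TYROBP was called without each of the 12 arrays in turn, C1QB without 9 of 12 and AIF1 without 3 of 12. Their mean was 0.03 (range -0.21 to 0.29) in AMI/S-endMSCs, -0.29 (-0.75 to 0.32) in AMI/S-endMSCs* and 0.26 (-0.37 to 0.60) in AMI/Placebo pigs. MARCO, CD14 and FCGR1A had the lowest means of the markers, from 2.60 to 2.70. ABCA1 varied with these markers from pig to pig, short of the threshold after adjustment, with r = 0.841 over 12 pigs (permutation p = 0.00069, adjusted p = 0.134) and rho = 0.825 (permutation p = 0.00155, adjusted p = 0.148). Without the 2 pigs farthest from the median of the markers r was 0.781, and with biogroup means removed it was 0.802. In AMI/S-endMSCs* replicate 4 and AMI/Placebo replicate 4 the macrophage mean was -0.75 and -0.37, and ABCA1 read 5.05 and 5.60. In AMI/S-endMSCs replicate 1 these values were 0.29 and 5.99. The part of the narrow range of these arrays in the relation was not tested.

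ABCB10 and ABCC5 had the next highest r with the macrophage markers, which did not pass adjustment either. The r of ABCB10 was 0.737 (permutation p = 0.00668, adjusted p = 0.226; rho 0.804, permutation p = 0.00218) and 0.546 without the 2 farthest pigs. The r of ABCC5 was 0.729 (permutation p = 0.00652, adjusted p = 0.225; rho 0.748, permutation p = 0.0066) and 0.705 without them. In a limma model with a mean per biogroup, the slopes on the macrophage markers were 1.31 for ABCA1 (unadjusted p = 0.00164), 1.06 for ABCB10 (unadjusted p = 0.0135) and 1.11 for ABCC5 (unadjusted p = 0.0117), in log2 units per log2 unit of the markers. These 3 of 26 genes (11.5%) passed unadjusted, against 11.9% of all genes, and 0 of 26 passed after adjustment over all genes, against 0.101% of them. In all, 52 relations were computed, 26 genes with each of 2 marker sets, of which 5 had an unadjusted permutation p of r under 0.05 and 0 an adjusted one.

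The sulfonylurea receptor ABCC9, or SUR2, is the regulatory subunit of the KATP channel in heart muscle and vascular smooth muscle. It read 3.80, 5.72, 5.998 and 6.52 in AMI/S-endMSCs, 6.54, 5.52, 6.73 and 7.01 in AMI/S-endMSCs*, and 6.72, 6.92, 5.31 and 5.71 in AMI/Placebo pigs. The pig at 3.80 was AMI/S-endMSCs replicate 1, the array that stood apart, and the other 11 lay between 5.31 and 7.01. The log2 fold change was 0.94 (SE 0.542, limma unadjusted p = 0.104, adjusted p = 0.739) in AMI/S-endMSCs* against AMI/S-endMSCs, the largest of the family in that comparison, and 0.37 (unadjusted p = 0.408) without replicate 1 of AMI/S-endMSCs. It was called there without AMI/S-endMSCs replicate 4, at 1.28 (unadjusted p = 0.0393), and without AMI/S-endMSCs* replicate 2, at 1.25 (unadjusted p = 0.0436). Against AMI/Placebo it was -0.66 (unadjusted p = 0.246; -0.09, unadjusted p = 0.843, without replicate 1) in AMI/S-endMSCs and 0.28 (unadjusted p = 0.607) in AMI/S-endMSCs*.

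ABCC9 varied with the cardiomyocyte markers from pig to pig, also short of the threshold after adjustment. Over 12 pigs r was 0.744 (permutation p = 0.00367, adjusted p = 0.104) and rho 0.762 (permutation p = 0.00589, adjusted p = 0.181), with r = 0.781 without the 2 farthest pigs and 0.688 with biogroup means removed. The limma slope was 0.565 log2 units per log2 unit of the markers (unadjusted p = 0.00548, adjusted p = 0.192). With the cardiomyocyte markers as a covariate, the log2 fold change of ABCC9 in AMI/S-endMSCs* against AMI/Placebo was -0.30 in place of 0.28, and neither passed. ABCA1 had the opposite relation (r = -0.593, permutation p = 0.0441, adjusted p = 0.385, and rho -0.573, permutation p = 0.0553), with r = -0.458 without the 2 farthest pigs. ABCA6 had a positive slope of 0.339 (limma unadjusted p = 0.0326) in its main probe set, with which its other probe set correlated at r = 0.11. These 3 of 26 genes (11.5%) had an unadjusted slope p under 0.05 on the cardiomyocyte markers, against 8.92% of all genes, and 0 passed after adjustment, against 1.18%.

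**Figure D4:**
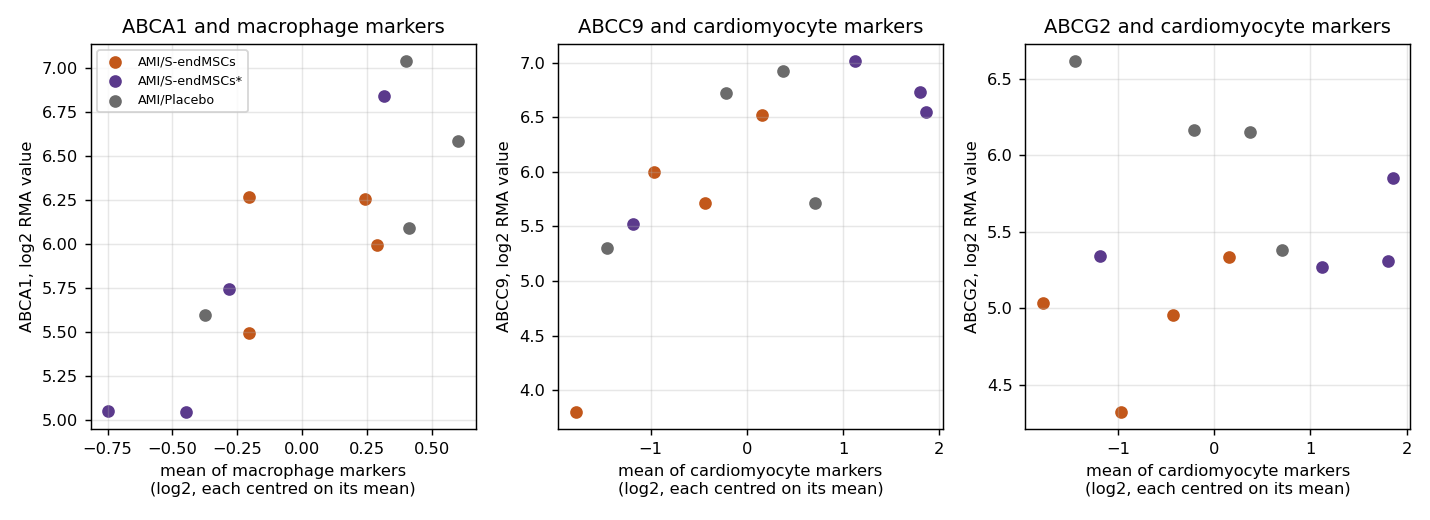
Log2 RMA values of ABCA1 against the mean of the macrophage markers, and of ABCC9 and ABCG2 against the mean of the cardiomyocyte markers, 1 point per pig, coloured by biogroup; both axes are log2 units and each marker is centred on its mean. ABCA1 (r = 0.841) and ABCC9 (r = 0.744) rise with the markers, and ABCG2 (r = 0.0982) does not. The mean of the cardiomyocyte markers spans -1.78 to 0.15 in AMI/S-endMSCs and -1.45 to 0.70 in AMI/Placebo pigs.

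The other 2 ABCC9 probe sets varied with the main one (r = 0.78 and 0.71 over 12 pigs) and were not called in any comparison by limma at an unadjusted p under 0.05. Their log2 fold changes in AMI/S-endMSCs* against AMI/S-endMSCs were 0.52 and 0.25. The pores of the channel, KCNJ8 and KCNJ11, were also not called. KCNJ8 averaged 4.56 in AMI/S-endMSCs, 4.72 in AMI/S-endMSCs* and 4.64 in AMI/Placebo pigs, and KCNJ11 2.65, 2.99 and 2.89 in that order. ABCC8, or SUR1, the receptor of pancreatic beta cells, had a mean of 1.82, below the median of all probe sets.

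Among the mitochondrial and lysosomal members, ABCB10, an inner membrane protein of mitochondria needed for heme formation, read 3.13, 3.001, 3.75 and 3.05 in AMI/S-endMSCs, 2.70, 3.88, 2.30 and 2.32 in AMI/S-endMSCs*, and 3.54, 4.26, 3.08 and 2.65 in AMI/Placebo pigs. The biogroups overlapped, and 3 AMI/S-endMSCs* pigs lay low while replicate 2 was the second highest of all. Its log2 fold changes against AMI/Placebo were -0.15 (unadjusted p = 0.711) in AMI/S-endMSCs and -0.58 (unadjusted p = 0.160) in AMI/S-endMSCs*. ABCB6, a porphyrin transporter, averaged 2.42, 2.57 and 2.22, and ABCB9, the lysosomal peptide transporter, 2.94 in each biogroup, in the order AMI/S-endMSCs, AMI/S-endMSCs* and AMI/Placebo.

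Of 17 listed heme genes 11 were measured. In AMI/S-endMSCs against AMI/Placebo 1 of the 11 was called, where 4.44% of all genes were called. Between the treated biogroups 2 were called, where 7.29% of all genes were. HMOX2, the constitutive heme oxygenase, fell in AMI/S-endMSCs against AMI/Placebo (mean 4.55 in AMI/S-endMSCs and 5.25 in AMI/Placebo, log2 fold change -0.70, limma unadjusted p = 0.0468, adjusted p = 0.857). Without AMI/S-endMSCs replicate 1 the value of HMOX2 was -0.44 (unadjusted p = 0.165), and its call was kept without 4 of the 12 arrays. ALAS1, the rate-limiting enzyme of heme synthesis, rose in AMI/S-endMSCs* against AMI/S-endMSCs (mean 4.93 in AMI/S-endMSCs* and 3.73 in AMI/S-endMSCs, log2 fold change 1.20, limma unadjusted p = 0.00289, adjusted p = 0.580), and did so without each of the 12 arrays in turn. The other of the 2 ALAS1 probe sets was not examined. PPOX, a late enzyme of the pathway, rose as well (mean 5.42 in AMI/S-endMSCs* and 4.84 in AMI/S-endMSCs, log2 fold change 0.58, limma unadjusted p = 0.0493, adjusted p = 0.679), but was called without 5 of the 12 arrays, and not without AMI/S-endMSCs replicate 1 (0.47, unadjusted p = 0.122). Of the 11, 0 passed by limma in AMI/S-endMSCs* against AMI/Placebo. The comparison in which ALAS1 and PPOX rose is also the one in which 13 cardiomyocyte markers were called higher, 10 of which lost the call without AMI/S-endMSCs replicate 1, and their part in it was not tested. Of 15 listed genes of iron-sulfur cluster assembly 2 were measured, NFS1 and LYRM4, and neither passed.

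ABCD4, which passes cobalamin out of lysosomes, read 4.19, 3.76, 3.82 and 3.98 in AMI/S-endMSCs, 3.32, 4.35, 4.44 and 3.22 in AMI/S-endMSCs*, and 4.15, 4.08, 3.76 and 4.03 in AMI/Placebo pigs. AMI/S-endMSCs* held the 2 highest and the 2 lowest values, and the log2 fold changes against AMI/Placebo were -0.07 (interval -0.69 to 0.55) in AMI/S-endMSCs and -0.17 (-0.79 to 0.45) in AMI/S-endMSCs*. Its second probe set gave nearly the same order of pigs (r = 0.99). ABCD2, a peroxisomal importer of long fatty acids, had a mean of 1.52. Of 23 listed peroxisome genes 14 were measured. Against AMI/Placebo 1 was called in AMI/S-endMSCs and 2 in AMI/S-endMSCs*, where 4.44% and 3.23% of all genes were called. Between the treated biogroups 2 were called, where 7.29% of all genes were. PEX11A, which promotes division of peroxisomes, rose against AMI/Placebo by 0.60 (unadjusted p = 0.0200) in AMI/S-endMSCs and by 0.65 (unadjusted p = 0.0127) in AMI/S-endMSCs*, at means of 1.91, 1.96 and 1.31 in AMI/S-endMSCs, AMI/S-endMSCs* and AMI/Placebo. These means lay under the median of all probe sets. ACOX2, an oxidase of branched chain lipids and bile acid precursors, rose in AMI/S-endMSCs* by 0.75 (unadjusted p = 0.0260) against AMI/Placebo and by 1.09 (unadjusted p = 0.00288) against AMI/S-endMSCs, where the call held without each of the 12 arrays and PEX26, an anchor of the import machinery, rose by 0.90 (unadjusted p = 0.0184; 0.72, unadjusted p = 0.0609, without AMI/S-endMSCs replicate 1). The rise of ACOX2 against AMI/Placebo was lost without AMI/S-endMSCs* replicate 1, 3 or 4 or AMI/Placebo replicate 3 or 4, and that of PEX11A in AMI/S-endMSCs without AMI/S-endMSCs replicate 3 or AMI/Placebo replicate 2. Cardiomyocyte markers were called higher between the treated biogroups too, 13 with all arrays and 3 of them without AMI/S-endMSCs replicate 1, and their part was not tested. None of these passed adjustment.

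ABCF1, which acts in the initiation of translation, ranged from 4.69 to 5.66. It read 4.69, 5.39, 4.85 and 5.18 in AMI/S-endMSCs, 4.98, 5.31, 5.66 and 4.82 in AMI/S-endMSCs*, and 5.24, 4.94, 5.49 and 5.19 in AMI/Placebo pigs. The log2 fold changes against AMI/Placebo were -0.19 (interval -0.72 to 0.35) in AMI/S-endMSCs and -0.02 (-0.55 to 0.51) in AMI/S-endMSCs*. The 3 probe sets of ABCF1 did not say the same in AMI/S-endMSCs: probe set 15308328 was lower than in AMI/Placebo by the unadjusted test (3.62, 5.57, 4.72 and 3.78 in AMI/S-endMSCs against 5.62, 4.76, 5.69 and 5.53 in AMI/Placebo pigs, log2 fold change -0.97, limma unadjusted p = 0.0307, adjusted p = 0.857), while probe set 15314693 gave 0.09 (unadjusted p = 0.792). The lowest value of probe set 15308328 was that of AMI/S-endMSCs replicate 1, and its call was not checked without that array.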

How the data were processed

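The authors made the deposited log2 values with RMA in the R package oligo (versions are not given in the sources used here), which corrects the background, normalizes arrays by quantiles and summarises probe sets. No scan files were used, so these steps are theirs. Of the columns 0 were left unmapped. Probe sets were named by the platform annotation: 11982 had 1 symbol, 373 several and 15203 none listed. Of the 26 ABC genes 22 matched an Entrez identifier of the pig gene table. For genes of the other lists only the probe set with the highest mean was used. No genome build was given, so positions are not shown.

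All 12 arrays entered 1 limma 3.58.1 model (R 4.3.3) with 3 biogroup means; calls follow the threshold of the study's methods, an unadjusted p under 0.05, with Benjamini-Hochberg adjustment over 27558 probe sets beside it. Slopes used the mean of the centred markers with biogroup in the model, adjusted over 10912 genes, and r and rho had 100000 permutations. The fits were tested on simulated data. Each replicate is a pig. The numbers shared by the labels do not pair pigs. Array number limits the precision. Named were ABCG2, every called ABC gene, the 3 largest fold changes per comparison, the 8 highest means, and called genes of the lists; others, such as ABCB11, ABCB10 and TAP1, were named after their values were seen. Members and lists were chosen with earlier results of these data known. Alternatives were other scaling (median centring, quantiles), removal of dim probe sets, array weights, the replicate block, the cardiomyocyte mean as covariate, averaging of a gene's probe sets, and each array left out. Figures were drawn with matplotlib 3.10.9 in Python 3.11.15.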

Additional observations from a re-analysis of the deposited data

Results flagged for a closer look

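A pig was marked where its gap to the nearest of the other 3, divided by the range of its biogroup, exceeded Dixon's 95% critical value. By chance this happens in about 5% of biogroups, and 6 of 84 were marked. ABCA3 was 4.56 in AMI/S-endMSCs replicate 1, against 2.82 to 3.11 in the other 3 pigs. ABCB10 was 3.75 in AMI/S-endMSCs replicate 3, against 3.001 to 3.13 in the others. ABCC3, an exporter of conjugated bile acids, was 2.94 in AMI/S-endMSCs* replicate 1, against 2.40 to 2.44 in the others. ABCG2 was 5.85 in AMI/S-endMSCs* replicate 1, against 5.27 to 5.34 in the others. ABCG2 probe set 15324474 was 2.92 in AMI/S-endMSCs replicate 4, against 3.62 to 3.67 in the others. ABCB9 was 2.85 in AMI/Placebo replicate 3, against 2.95 to 2.97 in the others, a gap small in log2 units.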

How the results depend on the processing

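The fall of ABCG2 in AMI/S-endMSCs against AMI/Placebo was called under each alternative run. Every alternative used probe set 15321766, alone or averaged with the others. ABCG2 was not called there in its other probe sets taken alone (-0.33, limma unadjusted p = 0.242, and -0.10, unadjusted p = 0.837). Its fall in AMI/S-endMSCs* was not called with quantile normalization (-0.62, unadjusted p = 0.0600), the filter on dim probe sets (-0.64, unadjusted p = 0.0563), the replicate block (-0.64, unadjusted p = 0.0671), the cardiomyocyte covariate (-0.60, unadjusted p = 0.0946) or the mean over probe sets (-0.17, unadjusted p = 0.477), and ranged from -0.87 to -0.46 with arrays left out. The count of ABC genes called in AMI/S-endMSCs* against AMI/Placebo was 2 with median centring (ABCG2 and ABCG8), 3 with array weights (ABCA1, ABCC5 and ABCG2), 0 with the filter, the block, the covariate and the mean over probe sets, and 0 to 3 with arrays left out (3 without AMI/Placebo replicate 4, which add ABCA1 and ABCC5; 2 without AMI/S-endMSCs* replicate 1, ABCB11 and ABCG2, or replicate 2, ABCA1 and ABCB10; 0 without AMI/S-endMSCs replicate 1 or 2, AMI/S-endMSCs* replicate 3 or 4, or AMI/Placebo replicate 1 or 3). For AMI/S-endMSCs against AMI/Placebo it was 2 with array weights (ABCC5 and ABCG2) and 1 to 2 with arrays left out (ABCG4 added without AMI/S-endMSCs replicate 2, ABCC5 without AMI/Placebo replicate 4), and for AMI/S-endMSCs* against AMI/S-endMSCs it was 1 with quantile normalization (ABCA2) and 0 to 2 with arrays left out (ABCG4 without AMI/S-endMSCs replicate 2, ABCC2 without replicate 3, ABCC9 without replicate 4, and ABCB10 and ABCC9 without AMI/S-endMSCs* replicate 2). With array weights 2 slopes on the cardiomyocyte markers passed adjustment (ABCA1 and ABCC9), and 0 to 1 slopes on the macrophage markers did with arrays left out (ABCC4 without AMI/S-endMSCs replicate 1, ABCA1 without AMI/S-endMSCs replicate 3). The causes were not tested.

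The replicate block changed no other call of the members, and moved the probe sets called from 1420, 925 and 2020 to 1630, 1075 and 2163. Same-numbered pigs deviated with r from -0.18 to 0.40, over 0.1 in 4 of 12 pairs, and 3 of 12 arrays correlated best with their own number. Of all probe sets called in AMI/S-endMSCs against AMI/Placebo 61.2% were higher, and 39.5% with median centring. In AMI/S-endMSCs* against AMI/S-endMSCs 55.9% were higher, and 68.1% with median centring. Array weights called 2621, 2251 and 2347 probe sets in the 3 comparisons.

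Among the 8 other named genes, 31 of 456 values changed sign, none of them called. Against AMI/Placebo in AMI/S-endMSCs these were ABCD4 (0.055) and ABCF1 (0.0100) with quantile normalization and ABCA3 (-0.0098) with array weights. In AMI/S-endMSCs* they were ABCF1 (0.0042) with quantile normalization, and ABCC4 (0.075) and ABCC9 (-0.30) with the covariate. In AMI/S-endMSCs* against AMI/S-endMSCs they were ABCA6 (0.015) with median centring, ABCF1 (-0.0058) with quantile normalization, ABCC4 (-0.059) with array weights, and ABCA1 (0.24), ABCC5 (0.29) and ABCD4 (0.055) with the covariate. With arrays left out, AMI/S-endMSCs against AMI/Placebo ranged from -0.30 to 0.28 for ABCA3, -0.57 to 0.030 for ABCA6 and -0.65 to 0.078 for ABCC4. AMI/S-endMSCs* against AMI/Placebo ranged from -0.43 to 0.077 for ABCC4, -0.0018 to 0.59 for ABCC9, -0.37 to 0.035 for ABCD4 and -0.18 to 0.10 for ABCF1. AMI/S-endMSCs* against AMI/S-endMSCs ranged from -0.32 to 0.16 for ABCA6, -0.19 to 0.46 for ABCC4, -0.30 to 0.10 for ABCC5 and -0.31 to 0.10 for ABCD4.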
